A study of Mus musculus with 4 samples.

Results

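The platelet-derived growth factor (PDGF) family was followed through the cell types of the mouse heart. Its 6 members are the ligand genes Pdgfa, Pdgfb, Pdgfc and Pdgfd and the receptor genes Pdgfra and Pdgfrb. They were chosen by name, and all 6 were found among the 32286 features of the count table. Each member is described across cell types rather than across conditions.

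The study profiled cardiac interstitial cells, the non-muscle cells of the heart, by droplet single-cell RNA sequencing with 10x Genomics chemistry. The labels give 4 heart samples, 2 from Stroke mice and 2 from Control mice, taken 1 month after stroke or the control condition. All 4 came from the strain Ccr2creERT2-Ai14, in which a Cre recombinase that is active only after induction is driven by the Ccr2 gene of monocytes and switches on a red fluorescent reporter. Stroke model, age, sex, induction and pooling of animals are not given in the sources used here. Hearts were minced, digested with enzymes, strained to take out cardiomyocytes, treated to lyse red cells, depleted of dead cells on beads and sorted as live nucleated cells, so shares of cells describe what survived those steps. The deposited table joined 4 sequenced libraries whose barcodes carried a number and no sample name. No library could therefore be assigned to Stroke or Control, and no value below compares the conditions.

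The libraries held 9168 to 10473 barcodes and 31955157 to 45834980 unique molecular identifiers (UMIs, each standing for 1 captured RNA molecule). After filtering, 37479 cells remained, with a median of 2568 to 3484 UMIs a cell in each library. They were grouped into 14 classes of at least 50 cells from fixed marker genes, and each class name means cells like that type by those markers. Endothelial cells (22773, 60.8% of cells) and fibroblasts (8137, 21.7%) were the largest classes. The rest were 1491 B cells, 1252 macrophages, 665 T cells, 477 pericytes, 416 neutrophils, 407 non-classical monocytes, 285 epicardial or mesothelial cells, 233 NK cells, 115 ILC2 cells, 114 Schwann cells, 113 classical monocytes and 89 smooth muscle cells. Makeup differed among the libraries: library 3 had 7.42% fibroblasts and 7.24% macrophages, while library 1 had 36.2% fibroblasts and 1.83% macrophages. Of 37341 distinct cell barcodes, 138 occurred in more than 1 library.

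PDGF ligands are secreted dimers that activate 2 receptor tyrosine kinases. The A and C chains act mainly through PDGFRα, the B chain through both receptors, and the D chain mainly through PDGFRβ. A and B chains are cut by furin-type convertases inside the cell, whereas C and D chains leave the cell in a latent form and are cut outside it. In blood vessels, endothelial PDGF-B recruits pericytes that carry PDGFRβ, and in the heart PDGFRα is a widely used marker of fibroblasts.

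A level below is the UMIs of a gene summed over the cells of a class, per 1000000 UMIs of that class (CPM), with an exact 95% Poisson interval. Ratios of levels carry exact 95% conditional binomial intervals, and shares of cells carry exact Clopper-Pearson ones. All of these cover counting error only, since the joined table counts as 1 sample, and no test between cell types was made. For many levels, though not all, the value in each library is given beside the sum. Capture of the 3′ end and gene length differ between genes, so levels are compared between cell types for 1 gene and never between genes.

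**Figure D1:**
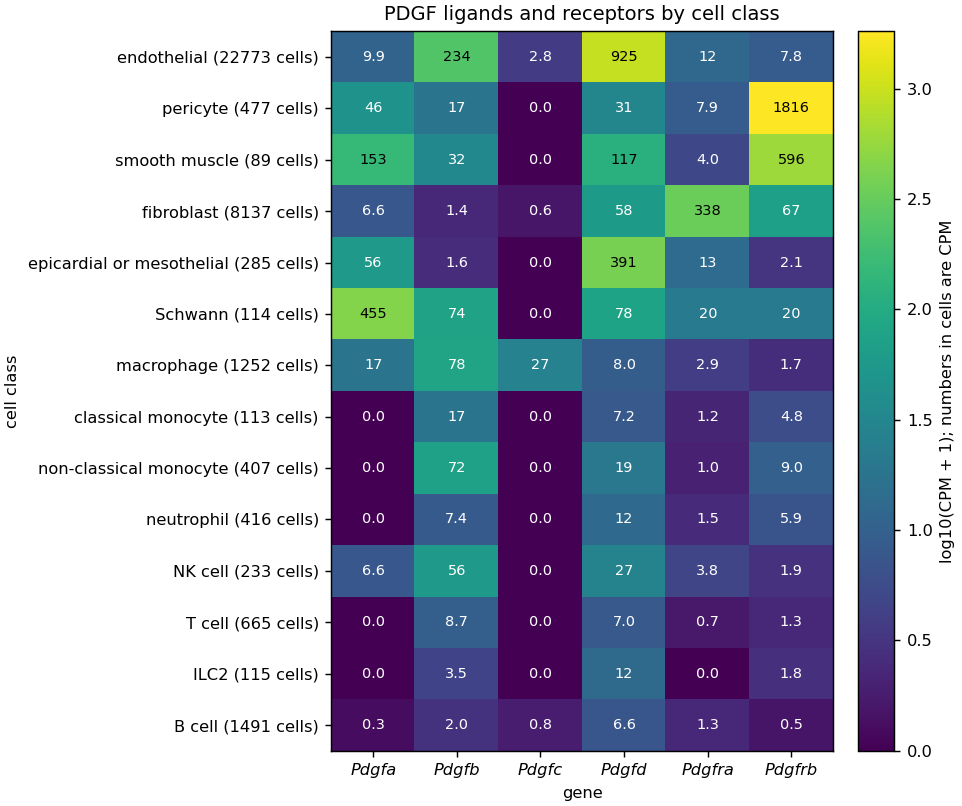
Level of each PDGF gene (columns) in the 14 cell classes (rows), with the CPM printed in each cell and colour showing log10(CPM + 1). Each gene has 1 leading class, and Pdgfb and Pdgfd share the endothelial class.

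Every member had 1 class that stood above the others. Pdgfa was highest in Schwann cells, Pdgfb and Pdgfd in endothelial cells, Pdgfc in macrophages, Pdgfra in fibroblasts and Pdgfrb in pericytes. In 6 of 6 members the leading class was at least 2-fold above the next, against 25.4% of the genes that could be judged (3893 of 15353, those with at least 10 UMIs and at least 5 CPM in their leading class). The leading class was the same in 4 of 4 libraries for each member. At 3-fold the count was 3 of 6, since Pdgfa (2.97-fold), Pdgfb (2.98-fold) and Pdgfd (2.37-fold) lay below it, against 16.2% of genes.

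Below the leading class the order was less firm. Of the 13 pairs of classes next to each other in the order of levels, the interval of the ratio stayed above equality in 5 pairs for Pdgfa, 1 for Pdgfb, 2 for Pdgfc, 3 for Pdgfd, 1 for Pdgfra and 3 for Pdgfrb. The library ranges were also separate in 2, 1, 1, 3, 1 and 3 of those pairs.

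**Figure D2:**
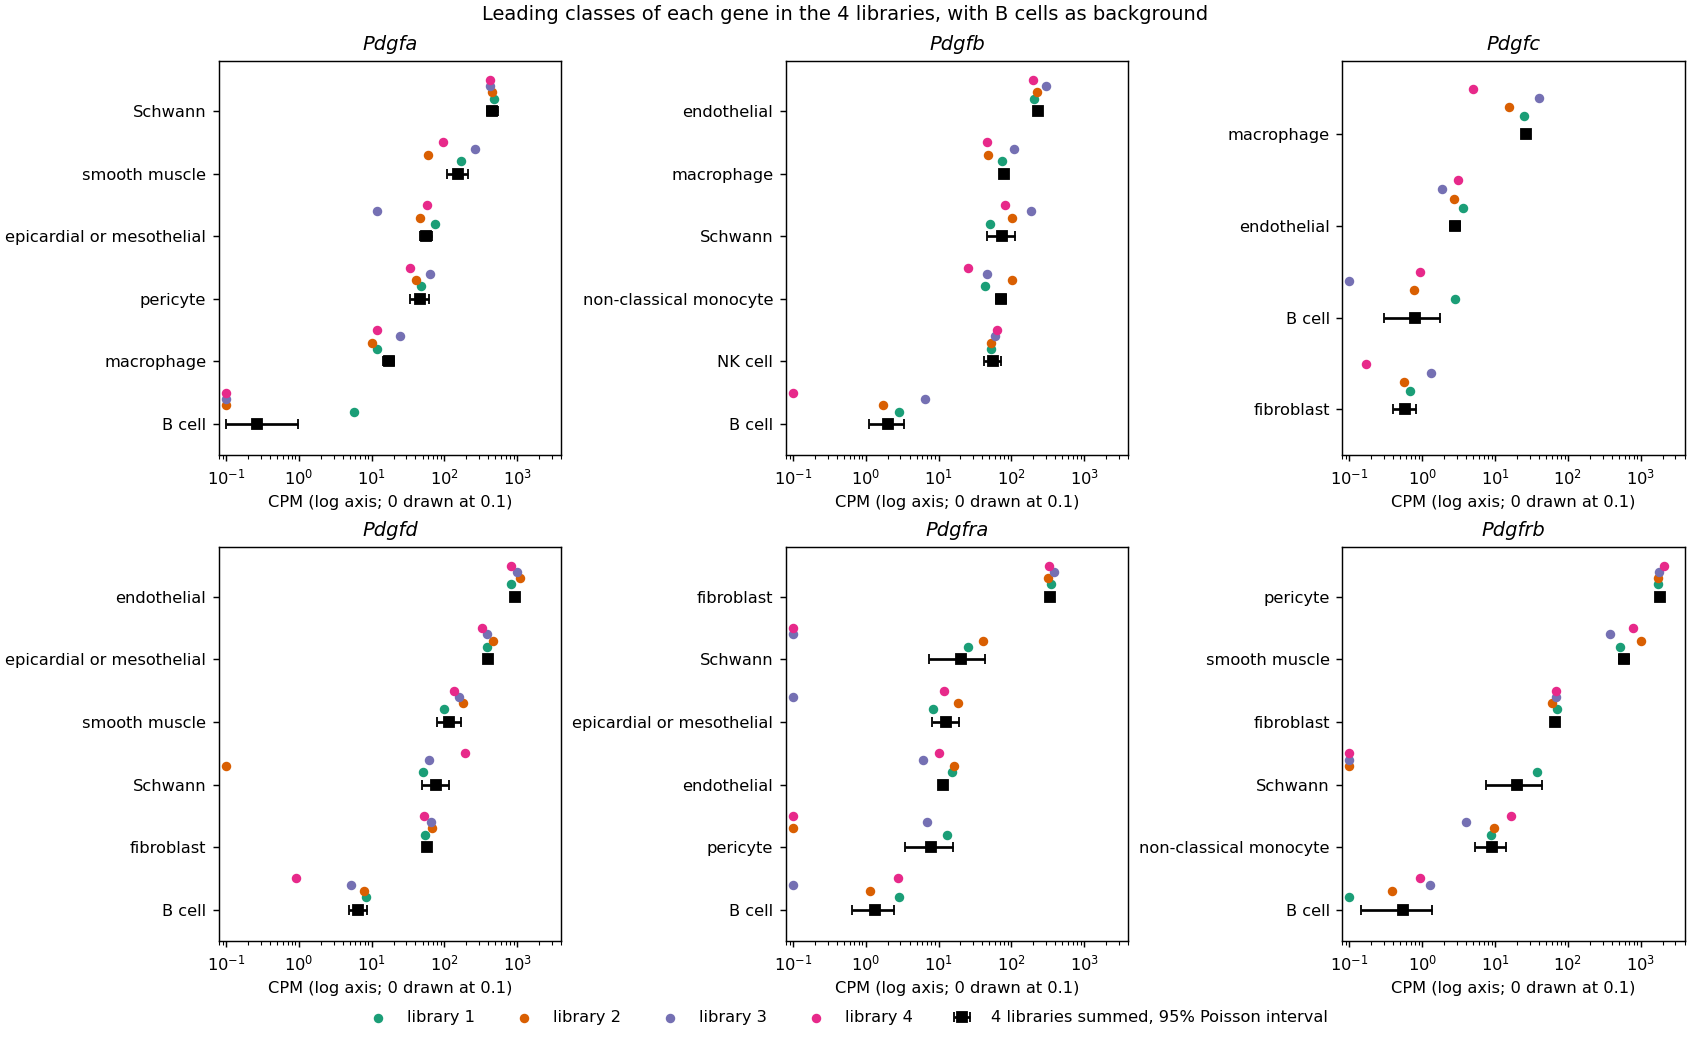
Level of each PDGF gene (CPM, log axis, 0 drawn at 0.1) in its leading classes and in B cells, with a coloured point for each of the 4 libraries and a black square for their sum with its 95% Poisson interval. The leading class of each gene lay above the other classes in every library, and B cells show the level of a class with little of any member.

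Pdgfa (chromosome 5, 138976014 to 138997370, minus strand, mm10, GENCODE release M21) encodes the A chain, a ligand of PDGFRα. Schwann cells, the glia that wrap peripheral nerve fibres, had the highest Pdgfa level at 455 CPM (95% interval 382 to 539). The 4 libraries gave 476, 445, 428 and 424 CPM in Schwann cells, from 60, 17, 8 and 29 cells. These values lie close together although 1 of the libraries held only 8 such cells. Smooth muscle cells came second at 153 CPM (108 to 210), and the Schwann level was 2.97-fold higher (2.06 to 4.38).

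A Pdgfa UMI was found in 62.3% of Schwann cells (52.7 to 71.2%) and in 0.0671% of B cells, which should lack the gene. Median depth was 2103.5 UMIs in Schwann cells and 3961 in B cells. Cells with at least 1000 UMIs were thinned to 1000 UMIs, and the shares among them were 42.9% and 0.0688%. Cells with fewer than 1000 UMIs are left out of this and all later thinned shares. The share was higher in Schwann cells than in B cells both before and after thinning. Summed markers of Schwann cells stood at 5954 CPM in this class and at 60.9 CPM in fibroblasts. Schwann cells nevertheless held only 9.63% of the Pdgfa UMIs of the 14 classes, because they were few. Endothelial cells, at a low level of 9.85 CPM, held 41.7%, and fibroblasts, at 6.60 CPM, held 25.0%.

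Contractile and epicardial cells formed the next tier of Pdgfa. Smooth muscle cells gave 168, 59.7, 267 and 96.7 CPM in the 4 libraries, from 52, 9, 9 and 19 cells. Epicardial or mesothelial cells, the outer lining of the heart, had 55.8 CPM, with libraries at 74.8, 45.5, 12.03 and 57.6 CPM. Pericytes had 45.6 CPM, with libraries at 47.2, 40.2, 63.1 and 33.2 CPM. The library ranges of these 3 classes overlapped. On the sums, the smooth muscle level was 3.35-fold that of pericytes (2.12 to 5.27). The smooth muscle level was also above the epicardial or mesothelial one, with the interval of the ratio above equality. Between epicardial or mesothelial cells and pericytes that interval included equality. Pdgfa was not detected in 5 of the 14 classes, and the largest of those, T cells, allows a level of up to 1.00 CPM, taking 3 UMIs as the limit that a count of 0 allows.

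Among endothelial subtypes the Pdgfa level was highest in large-artery cells, named from the markers Gja5, Bmx, Eln and Vegfc. Their level was 56.4 CPM, with libraries at 71.1, 86.1, 61.7 and 35.5 CPM. They held 90 of the 584 endothelial Pdgfa UMIs, and the far more numerous capillary cells held 329. The other arterial endothelial cells, which had Vegfc among their own leading genes, had 4.13 CPM, 13.6-fold lower (8.16 to 24.1). Capillary cells had 9.16 CPM. No library range of large-artery cells reached that of either comparison. Large-artery cells with a Pdgfa UMI held 123 CPM of smooth muscle markers and those without 74.9 CPM, against 17110 CPM in the smooth muscle class. Valve-type endocardial cells had 34.6 CPM and chamber endocardial cells 4.69 CPM, a ratio of 7.38 (4.91 to 11.2). In fibroblasts, the Mfap4-type subtype had 15.2 CPM and the Cxcl14-type subtype 1.62 CPM, a ratio of 9.40 (5.69 to 16.6).

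Pdgfb (chromosome 15, 79995874 to 80014977, minus strand) encodes the B chain, the ligand through which endothelium recruits mural cells. Endothelial cells led at 234 CPM (230 to 238), with libraries at 203, 223, 304 and 198 CPM. Macrophages followed at 78.4 CPM, with libraries at 75.1, 47.5, 109 and 46.1 CPM, and the endothelial level was 2.98-fold higher (2.75 to 3.24). The lowest endothelial library stayed above the highest macrophage library. Endothelial cells held 93.2% of the Pdgfb UMIs of the 14 classes.

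A Pdgfb UMI was present in 39.3% of endothelial cells at a median depth of 2249 UMIs, against 0.939% of B cells at 3961 UMIs. At 1000 UMIs a cell, the shares were 21.6% and 0.275%. Fibroblasts were lowest of the 14 classes at 1.39 CPM, below the 2.01 CPM of B cells.

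A group of immune and glial classes formed a second tier of Pdgfb whose members could not be ordered. Macrophages (78.4 CPM), Schwann cells (74.2 CPM), non-classical monocytes (71.8 CPM) and NK cells (55.6 CPM) were neighbours, and each neighbouring interval included equality. NK cells varied least, with libraries at 51.9, 52.1, 59.4 and 63.2 CPM. Non-classical monocytes gave 43.4, 101, 46.5 and 25.1 CPM. Within lymphocytes, the NK level was 6.40-fold the T cell level of 8.69 CPM (3.97 to 10.6). Within monocytes, the non-classical level was 4.27-fold the classical level of 16.8 CPM (2.46 to 8.00). That ratio was 2.39 without library 2 and 9.99 without library 3.

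Pdgfb UMIs were also counted for each Pdgfd UMI in each class. Capture differs between the 2 genes, so this ratio is compared between classes only, and its size does not give relative amounts of the 2 ligands. Endothelial cells had 0.253 Pdgfb UMIs for each Pdgfd UMI (0.248 to 0.257), and B cells had 0.306 (0.159 to 0.555). Macrophages had 9.76 (7.52 to 12.9), non-classical monocytes 3.69 (2.58 to 5.40) and NK cells 2.03 (1.28 to 3.29). The ratio in Schwann cells was 0.957 (0.508 to 1.80), from 22 Pdgfb UMIs. T cells had 1.24 (0.670 to 2.31), classical monocytes 2.33 (0.842 to 7.41) and pericytes 0.548 (0.285 to 1.02). The intervals of these 7 classes lay above the endothelial one. Pdgfb in macrophages stood at 33.6% of its endothelial level, while their 5 endothelial markers stood at 1.17% to 1.95% of theirs. NK cells had Pdgfb at 23.8% of the endothelial level and the markers at 1.71% to 4.61%. In non-classical monocytes, Pdgfb was at 30.7% and the markers at 1.49% to 29.4%, the highest being Pecam1, which monocytes also express. Summed endothelial markers were 233 CPM in NK cells with a Pdgfb UMI and 73.2 CPM in those without, against 3610 CPM in endothelial cells, and their part in the NK level was not tested.

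Macrophage subtypes differed in Pdgfb. A subtype of 134 cells was given no type name and was set apart from its neighbours by Col14a1 and Nes, the genes with the largest fold over the other mononuclear sub-clusters. Against other cell types it was led by C1qa, C1qb and C1qc, genes of macrophages. It had 184 CPM, with libraries at 164, 115, 203 and 153 CPM, from 12, 19, 93 and 10 cells. The Lyve1-type subtype, resembling resident macrophages, had 88.9 CPM, with libraries at 84.1, 84.3, 92.9 and 79.8 CPM. The ratio was 2.07 (1.68 to 2.54), and the library ranges did not overlap. Without library 3, which held most of the 134 cells, the ratio was 1.64 (1.06 to 2.48), from 29 Pdgfb UMIs in the unnamed subtype. MHC-II-high macrophages had 76.1 CPM, a level not separated from the Lyve1-type one (ratio 1.17, 0.96 to 1.43). A subtype led by Prg4 and Saa3, 80 of whose 118 cells came from library 2, had 5.73 CPM.

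**Figure D3:**
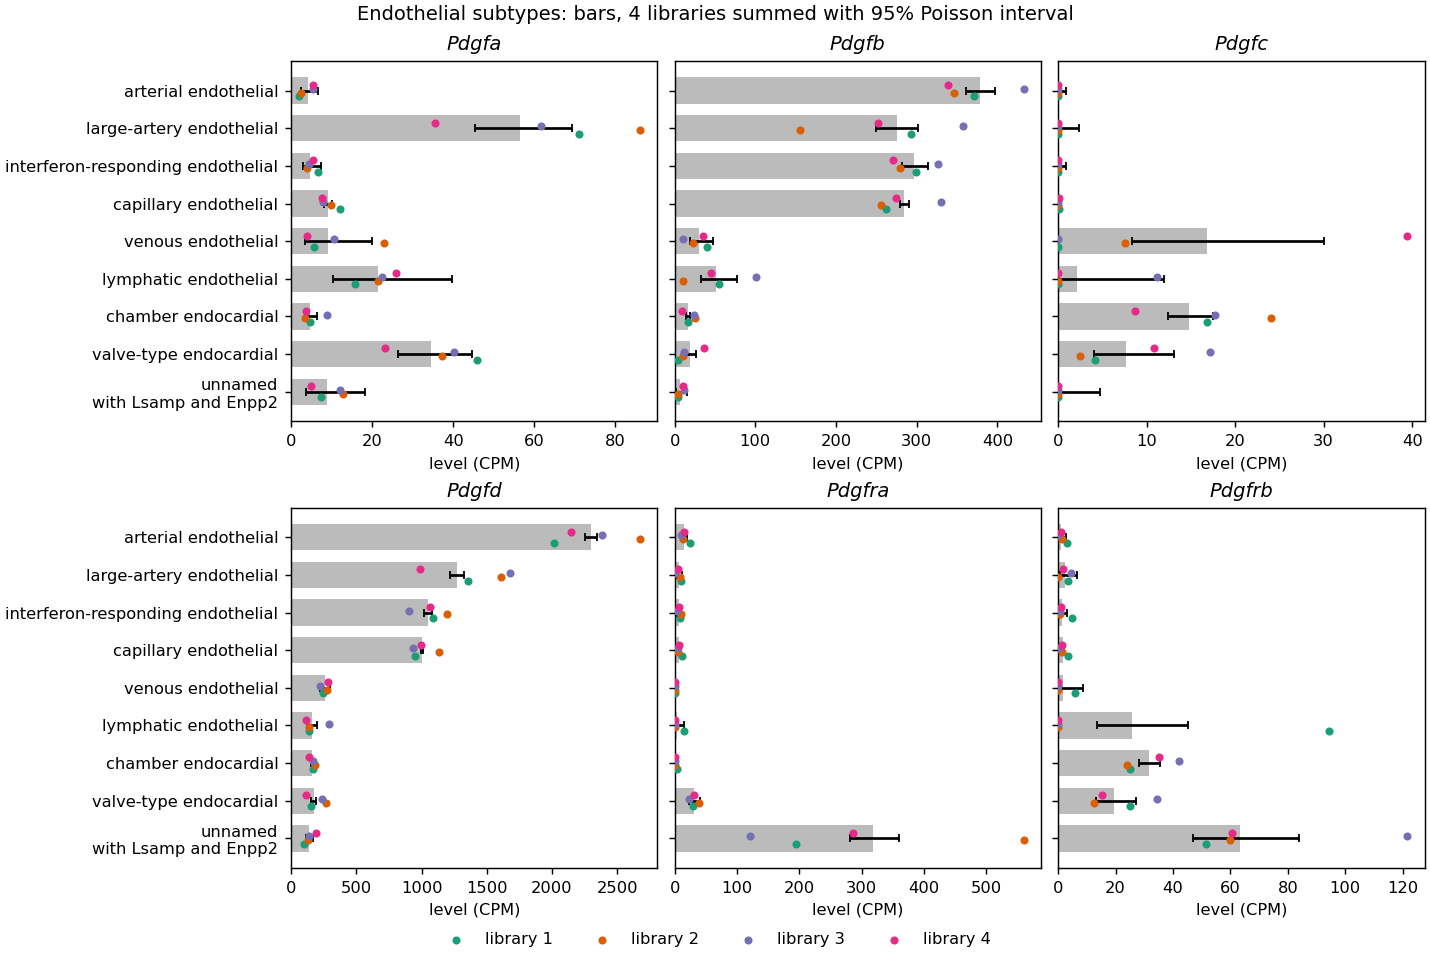
Level of each PDGF gene (CPM, linear axis from 0) in the 9 endothelial subtypes, with a grey bar for the 4 libraries summed, its 95% Poisson interval in black and a coloured point for each library. Pdgfb and Pdgfd were high in arterial and capillary cells and low in endocardial ones, while Pdgfc and Pdgfrb were higher in chamber endocardial than in capillary cells.

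Within the endothelium, Pdgfb differed among vessel types. Arterial cells were highest at 379 CPM, with libraries at 371, 346, 432 and 339 CPM. Capillary cells had 284 CPM, with libraries at 261, 256, 330 and 275 CPM, so that the arterial level was 1.33-fold higher (1.26 to 1.40). Arterial cells were higher within each library. Large-artery cells had 275 CPM, with libraries at 293, 155, 357 and 252 CPM, a range that overlapped that of capillary cells. The interferon-responding subtype (297 CPM) was not separated from capillary cells (ratio 1.05, 0.99 to 1.11). Chamber endocardial cells, which line the cavities of the heart, had only 16.1 CPM, with libraries at 16.4, 25.4, 23.8 and 9.24 CPM. The capillary level was 17.7-fold that of chamber endocardium (15.05 to 20.9) and 9.30-fold that of venous cells, at 30.6 CPM (6.02 to 15.2).

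Pdgfc (chromosome 3, 81036416 to 81214040, plus strand) encodes a latent ligand of PDGFRα. It was the most sparsely counted member, with 412 UMIs in the 14 classes. Macrophages had 26.6 CPM (23.2 to 30.5) and endothelial cells 2.80 CPM, a ratio of 9.51 (7.72 to 11.7). Macrophages gave 25.0, 15.7, 40.5 and 4.90 CPM in the 4 libraries, and endothelial cells 3.66, 2.75, 1.85 and 3.11 CPM. The macrophage level was higher in each library, but by little in library 4. Without library 3, which held 623 of the 1252 macrophages, the log2 ratio was 2.28 in place of 3.25. Pdgfc was at 0 in 10 of the 14 classes, pericytes, smooth muscle and Schwann cells among them, and in pericytes the 3 UMIs that a count of 0 allows would make 2.98 CPM.

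Shares of cells with a Pdgfc UMI were small throughout. They came to 11.02% of macrophages at a median of 5570.5 UMIs and 0.335% of B cells at 3961 UMIs. Thinned to 1000 UMIs they were 2.78% and 0.0688%. Lyve1-type macrophages held most of the signal at 49.3 CPM, with libraries at 36.3, 43.7, 58.7 and 18.1 CPM. MHC-II-high macrophages had 8.74 CPM, with libraries at 9.13, 5.91, 13.8 and 0 CPM, 5.64-fold lower (3.42 to 9.90). The 2 library ranges did not overlap.

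Chamber endocardium was a second site of Pdgfc. Its level was 14.8 CPM (12.5 to 17.5, 139 UMIs), with libraries at 16.8, 24.0, 17.7 and 8.71 CPM. Capillary cells, although 15503 in number, held 2 UMIs (0.0557 CPM), and the ratio was 266 with a wide counting interval of 72.3 to 2219. With 1 library left out it lay between 174 (without library 2) and 516 (without library 4), and it was 407 without library 1. The 6 macrophage markers in chamber endocardium lay at 0% to 0.396% of their macrophage level, with Fcgr1 at 0, while Pdgfc stood at 55.6% of its macrophage level. Venous cells had 16.8 CPM, but from 11 UMIs of which 10 were in library 4 alone. Pdgfc was not particular to the chamber type of endocardium. A Pdgfc UMI was found in 79 of 2253 chamber endocardial cells. Of 327 valve-type endocardial cells, 10 had a Pdgfc UMI without Pdgfra and 1 had both.

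Pdgfd (chromosome 9, 6168584 to 6378850, plus strand) encodes a latent ligand that acts mainly on PDGFRβ. It had 58991 UMIs in the 14 classes, 93.0% of them in endothelial cells. Endothelial cells had 925 CPM (917 to 933), with libraries at 832, 1078, 982 and 813 CPM. Epicardial or mesothelial cells had 391 CPM (363 to 420), with libraries at 389, 461, 385 and 323 CPM. The endothelial level was 2.37-fold higher (2.203 to 2.55), and the ranges did not overlap. A Pdgfd UMI was found in 69.6% of endothelial cells and in 2.55% of B cells, or 51.2% and 0.482% at 1000 UMIs a cell.

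Epicardial or mesothelial cells were the one class outside the endothelium in which Pdgfd was found in most cells, at 73.3% (31.4% at 1000 UMIs). Their Pdgfd stood at 42.2% of the endothelial level. Of their 5 endothelial markers, Pecam1, Cdh5, Egfl7 and Tie1 stood at 0.422% to 0.954% of the endothelial level and Esam at 58.8%. Pdgfb, which accompanies Pdgfd in endothelium, was at 1.58 CPM there, from 3 UMIs. The epicardial Pdgfd level was 6.69-fold that of fibroblasts (6.16 to 7.25). Fibroblasts had 58.4 CPM, with libraries at 53.9, 68.3, 65.1 and 52.2 CPM.

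Arterial cells stood highest for Pdgfd too. They had 2296 CPM, with libraries at 2018, 2675, 2383 and 2145 CPM, and 93.6% of them held a UMI. Large-artery cells had 1272 CPM, interferon-responding cells 1047 CPM and capillary cells 1004 CPM. Arterial cells were 2.29-fold above capillary cells (2.24 to 2.34), whose libraries lay at 947, 1137, 933 and 997 CPM. Venous (260 CPM), valve-type (173 CPM), lymphatic (160 CPM) and chamber endocardial cells (158 CPM) formed a low tier, and the unnamed subtype with Lsamp and Enpp2 was lowest at 137 CPM. The capillary level was 6.36-fold that of chamber endocardium (6.03 to 6.70), and the gap was narrower than the one for Pdgfb, with intervals that do not overlap.

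Fibroblast subtypes also spread widely in Pdgfd. A subtype with Nkain2 and Inmt among its leading genes (373 cells) had 213 CPM, with libraries at 201, 168, 351 and 175 CPM. A subtype of 861 cells was led by Cxcl14 and set apart from the other fibroblast sub-clusters by Lbp and Selenbp1. It had 15.7 CPM, with libraries at 13.4, 16.2, 13.4 and 17.99 CPM. The ratio was 13.6 (10.7 to 17.4), and the libraries were far apart. Mfap4-type cells had 109 CPM, 2.75-fold above Cxcl14-type cells at 39.7 CPM (2.45 to 3.08).

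Pdgfra (chromosome 5, 75152292 to 75198215, plus strand) encodes the receptor for the A and C chains. Fibroblasts had 338 CPM (333 to 343), with libraries at 349, 315, 390 and 325 CPM, and held 95.9% of the UMIs. Schwann cells were next at 20.2 CPM, from only 6 UMIs in libraries 1 and 2, and the ratio of 16.7 had an interval of 7.68 to 45.5. Epicardial or mesothelial cells (12.6 CPM), endothelial cells (11.7 CPM) and pericytes (7.94 CPM) followed. Fibroblasts were 42.6-fold above pericytes (21.6 to 98.7), or 158-fold without library 1, which left 1 pericyte UMI. A Pdgfra UMI was found in 78.01% of fibroblasts at a median of 6384 UMIs and in 0.671% of B cells at 3961 UMIs. Thinned to 1000 UMIs, these shares were 27.0% and 0.0688%.

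Pdgfra varied little among the 11 fibroblast subtypes. The Postn-type subtype, marked by matrix genes of activated fibroblasts, was lowest at 234 CPM, and the subtype with Nkain2 and Inmt was highest at 420 CPM. The ratio of highest to lowest was 1.79. For Pdgfrb in the same subtypes that ratio was 2.92, and for Pdgfd it was 13.6.

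One small endothelial subtype had far more Pdgfra than the others. It numbered 185 cells led by Lsamp, Enpp2, Postn, Ahsg and Fgf14, and no type name was given to it. Its Pdgfra level was 319 CPM (281 to 361), with libraries at 195, 560, 122 and 287 CPM, all above the 0 to 3.05 CPM of chamber endocardial libraries. The ratio to chamber endocardium was 230 (132 to 438), with 520 when library 1 and 132 when library 2 was left out. The ratio to fibroblasts was 0.943 (0.829 to 1.07), but the subtype was above fibroblasts in 1 of the 4 libraries, library 2. Without library 2 the subtype had 217 CPM and fibroblasts 347 CPM, a ratio of 0.626 (0.519 to 0.749). Pdgfrb in the same cells was 63.5 CPM, 40.7-fold above capillary cells (27.3 to 60.7), or 65.3-fold without library 1, whereas Pdgfb was at 6.35 CPM.

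Markers of both types were examined in that subtype. Its 5 endothelial markers stood at 20.9% to 115% of their endothelial level, and its 6 fibroblast markers at 0% to 19.6% of their fibroblast level. Tcf21 was at 0, Col1a1 at 3.81 CPM and Dpt at 7.62 CPM, while Dcn alone reached 2605 CPM. In the 68 cells with a Pdgfra UMI, summed fibroblast markers were 2245 CPM, and in the 117 without they were 3121 CPM. Endothelial markers were 2434 and 2449 CPM in the same cells. In valve-type endocardial cells, by contrast, where Pdgfra was 31.7 CPM, fibroblast markers were 5603 CPM in cells with a UMI and 2310 CPM in cells without. The part of fibroblast RNA in that valve-type level was not tested.

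**Figure D4:**
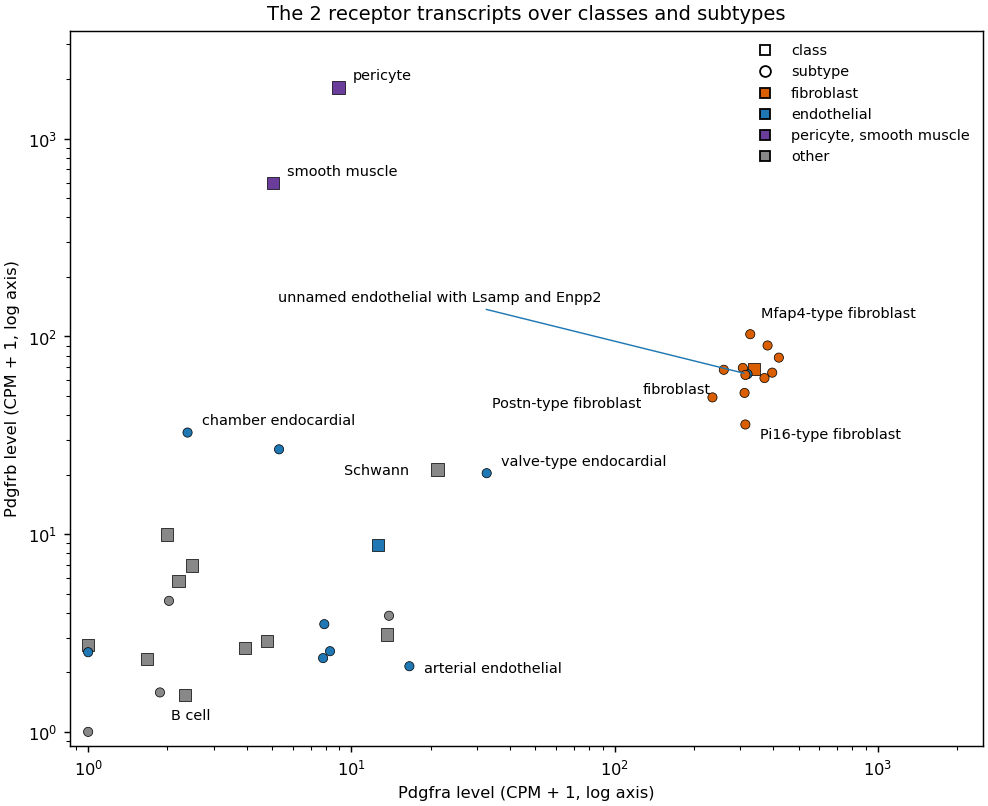
Pdgfrb level against Pdgfra level (both CPM + 1, log axes) in each class (squares) and in each subtype of fibroblasts, endothelial cells and macrophages (circles). Pericytes and smooth muscle lie high on Pdgfrb alone, fibroblast subtypes lie high on Pdgfra with lower Pdgfrb, and the subtype led by Lsamp and Enpp2 lies among the fibroblasts on the sum of 4 libraries.

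Pdgfrb encodes the receptor of the B and D chains that marks mural cells. Pericytes had 1816 CPM (1734 to 1901), with libraries at 1740, 1736, 1760 and 2094 CPM. Smooth muscle cells had 596 CPM (504 to 701), with libraries at 522, 1015, 373 and 774 CPM, and fibroblasts 67.4 CPM, with libraries at 70.0, 61.3, 68.4 and 69.6 CPM. The 3 classes were ordered the same way in each library. Pericytes were 3.05-fold above smooth muscle (2.57 to 3.63) and 26.9-fold above fibroblasts (25.5 to 28.5). Pericyte markers in the smooth muscle class stood at 41.0% of their pericyte level and Pdgfrb at 32.8%, and the part of pericytes in the smooth muscle value was not tested.

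A Pdgfrb UMI was found in 92.5% of pericytes at a median of 2021 UMIs and in 0.268% of B cells at 3961 UMIs. At 1000 UMIs a cell, the shares were 80.0% and 0.138%. Fibroblasts, being many, held 58.8% of the Pdgfrb UMIs of the 14 classes and pericytes 30.1%. Schwann cells had 20.2 CPM, but all 6 UMIs were in library 1.

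**Figure D5:**
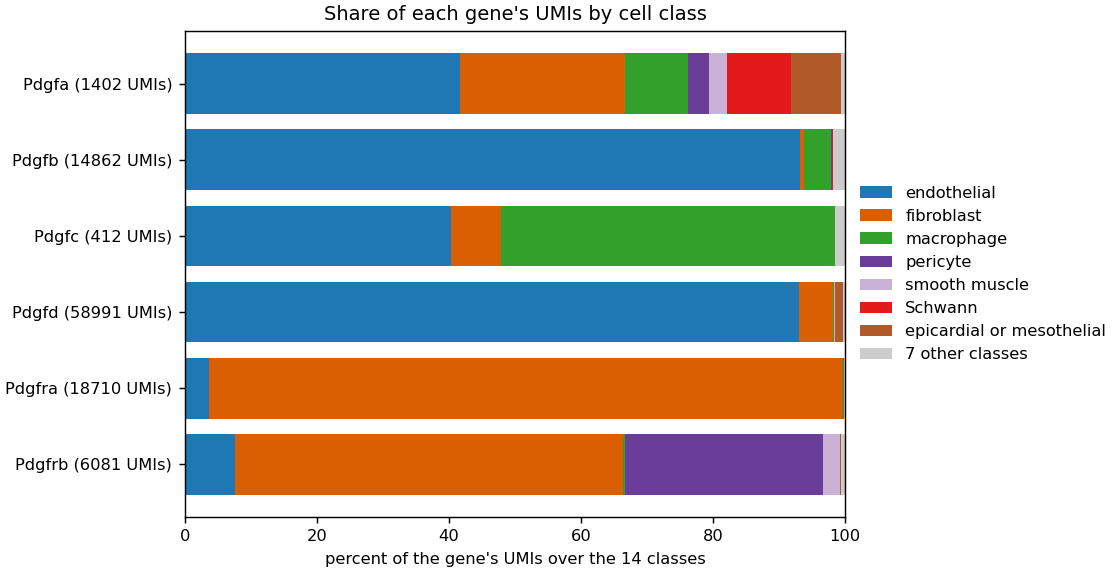
Percent of the UMIs of each PDGF gene (rows, with the number of UMIs) that fell in each cell class, over the 14 classes, with 7 named classes in colour and the other 7 in grey. Endothelial cells held most Pdgfb and Pdgfd UMIs, fibroblasts most Pdgfra and Pdgfrb UMIs and macrophages 50.7% of Pdgfc UMIs, while the Pdgfa UMIs were spread over several classes.

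Pi16-type fibroblasts, which resemble adventitial fibroblasts, were lowest for Pdgfrb among the fibroblast subtypes. They had 34.9 CPM, with libraries at 31.8, 36.2, 34.9 and 38.1 CPM. Mfap4-type cells had 102 CPM, with libraries at 103, 91.5, 72.3 and 121 CPM, 2.92-fold higher (2.62 to 3.25). Cxcl14-type cells had 89.1 CPM, 2.55-fold above the Pi16-type (2.29 to 2.85). Neither library range reached that of the Pi16-type.

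Chamber endocardium, low in Pdgfb and Pdgfd, had more Pdgfrb than capillary endothelium. Its level was 31.7 CPM, with libraries at 25.1, 24.0, 42.2 and 35.1 CPM, against 1.56 CPM in capillary cells, a ratio of 20.3 (15.2 to 27.5), which was 31.9 without library 1. Of its 6 pericyte markers, 4 lay between 0.0167% and 0.156% of their pericyte level, Abcc9 was at 1.02% and Colec11 at 13.6%. Pdgfrb itself stood at 1.74% of its pericyte level. Valve-type endocardial cells held Pdgfrb too: of 327, 22 had a Pdgfrb UMI without Pdgfra and 6 had both, against a Pdgfrb UMI in 247 of 2253 chamber cells. In lymphatic cells, all 12 Pdgfrb UMIs were in library 1. Summed pericyte markers were 339 CPM in chamber endocardial cells with a Pdgfrb UMI and 204 CPM in those without, against 18852 CPM in pericytes. The 6 fibroblast markers in chamber endocardium stood at 0.536% to 13.1% of their fibroblast level, and Pdgfra was at 1.39 CPM. Summed fibroblast markers were 1837 CPM in the cells with a Pdgfrb UMI and 1584 CPM in those without. The part of pericyte or fibroblast RNA in the endocardial value was not tested.

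Both receptor transcripts were found together in 2167 of 8137 fibroblasts (26.6%). Pdgfra alone was found in 4181, Pdgfrb alone in 466 and neither in 1323. After thinning to 1000 UMIs the share with both was 2.14%, so the count depends on depth. Of 477 pericytes, 433 had Pdgfrb alone and 8 (1.68%) had both.

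The 6 genes that process the ligands were highest in 6 different classes. Of 6 such genes, 4 had a leading class at least 2-fold above the next (25.4% over all genes), and their median log2 ratio of leading over second class was 1.68, against 0.42 for all genes. Of the 6, 3 were highest in a class led by a member, against 6380 of 15353 genes in all. Furin, a convertase of A and B chains, was highest in ILC2 cells at 389 CPM, against 64.7 CPM in neutrophils. Pcsk6, of the same convertase family, was highest in fibroblasts at 518 CPM, against 118 CPM in Schwann cells. Pcsk5 was highest in epicardial or mesothelial cells at 122 CPM. Plat, the tissue plasminogen activator that cuts the C chain, had 128 CPM in pericytes and 111 CPM in Schwann cells, a pair whose interval included equality. Plau, the urokinase that cuts the D chain, was highest in macrophages at 31.6 CPM, against 6.74 CPM from 2 UMIs in Schwann cells, a ratio of 4.69 (1.28 to 38.9). Macrophages led for Plau in 3 of 4 libraries, and Schwann cells in library 2. St14, a membrane protease that also cuts the D chain, was scarce, with 5.48 CPM in B cells as its highest level.

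Genes that bind the ligands or modulate the receptors led in classes where a member was highest, in 6 of 6 cases, against 6380 of 15353 genes in all. Sparc, a matrix protein that binds the B chain, was highest in Schwann cells at 7039 CPM, then in pericytes at 2477 CPM and fibroblasts at 2338 CPM. Nrp1, a co-receptor of several growth factors, had 1493 CPM in endothelial cells and 601 CPM in pericytes. Lrp1, an endocytic receptor that modulates PDGFRβ, had 587 CPM in fibroblasts and 302 CPM in pericytes. Pdgfrl, which encodes a receptor-like protein, had 91.1 CPM in fibroblasts and 12.5 CPM in endothelial cells. A2m, whose protein binds the B chain, was at 13.95 CPM in endothelial cells and at 0.526 CPM in the next class. Ndst1, which helps make the heparan sulfate that retains the B chain, had 105 CPM in Schwann cells and 74.4 CPM in neutrophils, a pair not separated by its interval.

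Of 11 signalling genes below the receptors, 2 had a leading class at least 2-fold above the next, against 25.4% of all genes. Their median log2 ratio was 0.38, against 0.42 for all genes, and 6 of the 11 were highest in a class led by a member, against 6380 of 15353. Pericytes led for Gab1, an adaptor, at 316 CPM and for Pik3ca, a catalytic subunit of phosphoinositide 3-kinase, at 331 CPM, against 177 CPM for Pik3ca in smooth muscle. Endothelial cells led for Plcg1, a phospholipase, at 90.9 CPM, for Nck1, an adaptor, at 266 CPM and for Sos1, which activates Ras, at 76.9 CPM. NK cells led for Pik3r1, the regulatory subunit, at 384 CPM and for Rasa1, which turns Ras off, at 211 CPM. The adaptors Grb2 (396 CPM) and Shc1 (41.9 CPM) and the phosphatase gene Ptpn11 (116 CPM) were highest in non-classical monocytes, and the kinase gene Src (47.2 CPM) in Schwann cells. For Sos1, Pik3r1, Shc1, Ptpn11 and Src the interval over the next class included equality, so these leads and the counts that hold them are not firm. Src, although counted as 2-fold, had a ratio of 2.07 (0.98 to 4.19). Sos1 and Shc1 each had the same leading class in only 1 of 4 libraries.

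Of 5 genes that damp receptor signalling, 1 led by at least 2-fold, against 25.4% of all genes, with a median log2 ratio of 0.58 against 0.42. None of the 5 was highest in a class led by a PDGF gene, against 6380 of 15353. That 1 was Ptprj, a phosphatase that acts on PDGFRβ, with 1181 CPM in non-classical monocytes and 499 CPM in macrophages. The phosphatase gene Ptpn1 (1002 CPM) and the ubiquitin ligase gene Cbl (268 CPM) were highest in the same monocytes. Cblb was highest in T cells (668 CPM) and Ptpn2 in NK cells (132 CPM). The Ptpn2 ratio over ILC2 cells was 1.08 (0.80 to 1.46), an interval that included equality, and NK cells led in 2 of 4 libraries.

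The genes most like each member were found by the Pearson correlation of log2(CPM + 10) over the 14 classes among 10679 genes, as a description. Pdgfa was most like Eva1c (0.94), Wrb (0.93) and Afap1l2 (0.92). Pdgfb was most like Cd36 (0.83), Fhod1 (0.83) and Flt1 (0.80), and Pdgfd like Galnt15 (0.96), Ptpn14 (0.95) and Stox2 (0.94). These 2 endothelial ligands shared none of their closest 3. Pdgfc was most like Ltc4s (0.99), Cbr2 (0.98) and Cd163 (0.98), Pdgfra like Lum (0.98), Dclk1 (0.98) and Arsj (0.98), and Pdgfrb like S1pr3 (0.99), Ndufa4l2 (0.99) and Ppfia2 (0.98). Cbr2 and Lum were themselves among the markers that named the cells. All correlations share the same 14 classes, libraries and depths.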

How the data were processed

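Per the submitters' processing notes, the reads were processed with Cell Ranger 7.1.0 on mm10. The authors deposited 1 joined matrix of raw UMI counts for 4 libraries, with no normalization. Cells with at least 500 UMIs, 250 genes and at most 15% mitochondrial UMIs were kept (821 barcodes failed), and 1431 doublets marked by Scrublet were removed. For library 3 the caller's own threshold marked none, so the median threshold of the other libraries, which was that of library 4, was used. This choice was made after seeing the scores. Cells were clustered with scanpy 1.11.5 and leidenalg 0.10.2 (2000 variable genes without the members and pathway genes, 30 components, 15 neighbours, resolution 1). The 34 clusters were named where at least 3 fixed markers were at least 2-fold above the lower quartile of clusters. Sub-clusters carrying markers of a second class (575 cells) were left out by a rule set after seeing the clusters, and 830 cells stayed outside the named classes, these included. Dendritic cells and cardiomyocytes, with under 50 cells each, were not compared.

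UMIs were summed per class and expressed as CPM, with exact intervals from scipy 1.17.1 at 95%. The script was tested on simulated data. The text names the 6 members, the 28 genes of the 4 pathway lists and, for each member, the 3 genes most correlated with it among genes with at least 1000 UMIs. Members, lists and markers were chosen with earlier results of these data known. Subtypes were compared after their levels were seen. The planned edgeR comparison of Stroke with Control was not run, because no label or file ties the library numbers to samples.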

Additional observations from a re-analysis of the deposited data

How the results depend on the processing

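No paired analysis was possible because the barcodes carry library numbers that no label ties to a sample, so the comparison of Stroke with Control, its DESeq2 and replicate block alternatives and its leave-one-out fits were not run. Across 12 settings for each member the leading class was the same. With cells weighted equally the classes were not ranked anew, so that setting could not change the leading class. No ratio reversed, and 63 of 74 recomputed values moved by less than their counting interval, the count of members after thinning included. Values are log2 ratios between the 2 classes that came first and second under the settings of the report, also where another class came second. With a marker gate per cell in place of clusters, Pdgfb gave 1.40 in place of 1.58 and Pdgfrb 1.86 in place of 1.61. With cells weighted equally, Pdgfc gave 3.92 in place of 3.25, Pdgfd 1.43 in place of 1.24 and Pdgfra 5.63 in place of 4.06. With cells thinned to 1000 UMIs, Pdgfc gave 4.17. With doublets kept, Pdgfra gave 6.55 over Schwann cells, which then held 1 Pdgfra UMI, and 4.34 over epicardial or mesothelial cells, which then came second. The cause of these shifts was not tested. Leaving out each library in turn gave 1.47 to 1.77 for Pdgfa, 1.38 to 1.95 for Pdgfb, 2.28 to 3.48 for Pdgfc, 1.18 to 1.32 for Pdgfd, 3.67 to 4.52 for Pdgfra and 1.37 to 1.69 for Pdgfrb. With 3-fold in place of 2-fold, 3 of 6 members led, and after thinning 6 of 6 led by 2-fold. Keeping sub-clusters with markers of a second class, chosen after seeing the data, gave 2.11 for Pdgfa, 1.49 for Pdgfb, 3.25 for Pdgfc, 1.19 for Pdgfd, 4.05 for Pdgfra and 1.85 for Pdgfrb. Depth was low for Pdgfc, with 412 UMIs, and in the small Schwann and smooth muscle classes. Ratios between subtypes with 1 library left out, also chosen after seeing the data, stand beside each ratio that moved by over 1.5 times.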
